A study of Oryctolagus cuniculus with 17 samples.

Results

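Ribosome biogenesis and rRNA processing factors were followed in the lungs of preterm rabbit pups under hyperoxia. The list held 49 genes, taken by their human gene names from the count table. Where a name had several entries, the one with the highest total count was used. 46 of the 49 genes had an entry and all 46 were tested, out of 13142 entries tested and 13827 in the table. BOP1, PPAN and NIP7 were not analysed here.

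Ribosomes are made in the nucleolus, where RNA polymerase I transcribes the precursor of the large rRNAs. Small nucleolar RNPs and modifying enzymes mark and fold this precursor, the SSU processome cuts out and shapes the small subunit, and separate sets of factors build the large subunit and finish both in the cytoplasm. Genes of these factors are known to be transcribed together and to be targets of MYC, and their demand follows cell growth.

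The lungs came from New Zealand White rabbit pups delivered by caesarean section on day 28 of gestation, so all groups share preterm birth. Pups stayed in incubators at 95% oxygen (hyperoxia, HT) or 21% oxygen (normoxia, NT) until postnatal day 3, 5 or 7, were fed a milk replacer, and RNA was taken from a homogenate of the total right lung. HT3, HT7, NT3, NT5 and NT7 had 3 samples each and HT5 had 2. The labels give neither the sex nor the litter of the pups, so p-values measure the spread between these samples only. In a whole-lung homogenate, fewer cells of a type and less RNA per cell cannot be told apart.

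The samples held 13123731 to 18111086 counts with each locus counted once. Levels are given as CPM (the share of a library's counts over all entries tested, where a shared locus counts once for each of its genes, scaled to a common total with TMM normalization) and log2FC as hyperoxia against normoxia of the same day. A gene was called upregulated or downregulated at an adjusted p-value under 0.01 in edgeR's quasi-likelihood test, adjusted by Benjamini-Hochberg over all entries tested, and all adjusted p-values below come from this test unless another is named. Lung markers fitted the tissue label: the summed level of 4 alveolar type 2 genes lay between 7467 and 21135 CPM in all samples. 4 members need care. NAT10, FBL and PES1 share a locus and all their counts with CAPRIN1, DYRK1B and SEC14L3, and the NPM1 entry (ENSOCUG00000032009) spans 1535 bp and has no rabbit gene name.

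Ribosome biogenesis genes were higher in hyperoxia on days 5 and 7, and more of them were called on day 7 than on day 5. On day 7, 41 of 46 members were upregulated and 1, PES1, was downregulated, where 16.7% of all entries tested were upregulated and 16.9% downregulated. On day 5, 33 of 46 were upregulated and 0 downregulated, against 8.56% and 7.62% of all entries. On day 3 edgeR called 0 of 46 in either direction, against 0.0989% and 0.107% of all entries. 12 members had an unadjusted p under 0.05 on day 3 (15.3% of all entries), a count that became 5 to 14 without single libraries (11.4% to 14% of all entries), 8 with library totals in place of TMM (15%), 18 with the replicate number as a block (16.3%) and 20 with the day 3 samples alone (20.6%). DESeq2 called 1, WDR36 (1.56% of all entries).

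The median log2FC of the 46 members was 0.23 on day 3, 0.98 on day 5 and 1.25 on day 7. Over all entries tested the medians were 0.00, -0.02 and -0.01. The log2FC was above 0 in 44 members on day 3, 43 on day 5 and 44 on day 7, where about 50.1%, 48.6% and 49.6% of all entries were above 0. All 33 members called on day 5 were called upregulated on day 7 as well. The 8 upregulated on day 7 but not called on day 5 were DDX10, EBNA1BP2, IMP3, MPHOSPH10, NCL, POP1, RPP25 and RPP40.

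The day 5 count rests on HT5, which had 2 samples. Without HT5 replicate 2 it fell to 7 of 46, beside 1.65% of all entries called in either direction, and the median log2FC to 0.68. Without HT5 replicate 1 the median was 1.24. With only the day 5 samples in the fit 0 members and 0.0945% of all entries passed in edgeR, while 40 members and 37.6% of all entries had an unadjusted p under 0.05. In the fit of all samples 42 members, and 43.3% of all entries, had an unadjusted p under 0.05 on day 5.

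**Figure D1:**
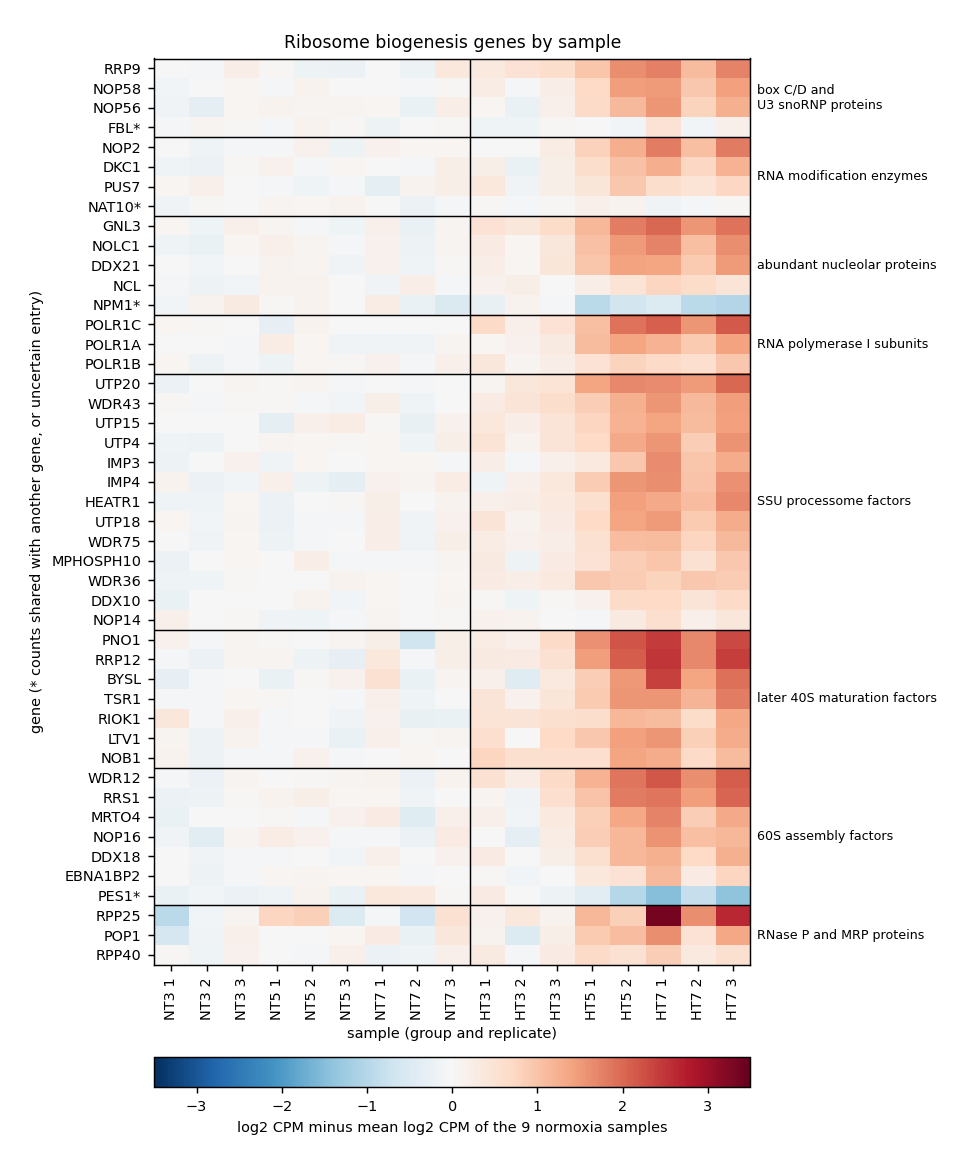
Level of each of the 46 ribosome biogenesis genes (rows, grouped by role) in each of the 17 samples (columns), as log2 CPM minus the mean log2 CPM of the 9 normoxia samples. The HT5 and HT7 columns are above the normoxia mean in nearly all rows, while NPM1 and PES1, marked as uncertain or shared entries, are below it.

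The samples separated in the same way. As the median over the members of log2 CPM relative to the normoxia mean, the 9 normoxia samples lay between -0.12 and 0.10. The HT3 samples stood at 0.25, 0.11 and 0.30, the HT5 samples at 0.73 and 1.23, and the HT7 samples at 1.48, 0.91 and 1.33. All hyperoxia samples were thus above all normoxia samples on this measure, and HT3 and HT5 did not overlap. HT3 replicate 2 was only just above, at 0.106 against 0.102 in NT7 replicate 3, where the SD within groups was 0.18.

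Single members overlapped more on day 3. All HT3 samples were above all NT3 samples in 24 members, where 12.8% of all entries separated this way. All HT5 samples were above all NT5 samples in 40 members (26.5% of all entries), and all HT7 above all NT7 in 42 (27.3%). Against all 9 normoxia samples at once, 8 members were higher in every HT3 sample (5.25% of all entries), 40 in every HT5 sample (20.8%) and 42 in every HT7 sample (21.7%).

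Some hyperoxia samples were low in most members. HT7 replicate 2 was the lowest HT7 sample in 41 of 46 members, HT5 replicate 1 was below replicate 2 in 40, and HT3 replicate 2 was the lowest HT3 sample in 34. The same libraries differed in lung cell markers. The median level of the alveolar type 2 genes, relative to the normoxia mean on the log2 scale, was 0.19 in HT7 replicate 2 against -1.21 and -0.77 in replicates 1 and 3. It was 0.60 in HT5 replicate 1 against -0.97 in replicate 2. 4 skeletal muscle genes summed to 303 CPM in HT3 replicate 2 against 4.14 and 38.8 in replicates 1 and 3, to 275 CPM in HT5 replicate 1 against 3.46 in replicate 2, and to 2.66 CPM in HT7 replicate 2. On the log2 scale relative to the normoxia mean, cell division genes had 0.44 in HT7 replicate 2 against -0.57 and -0.14. They had 0.06 in HT5 replicate 1 against -1.27, and -1.39, -1.38 and -1.43 in HT3. Macrophage genes had 0.68 in HT7 replicate 2 against -0.44 and -1.16, and 0.35 in HT5 replicate 1 against -1.16. In HT3 replicate 2 they had -0.60 against -0.15 and 0.26. The part of these markers in the members' levels was not tested.

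RNA polymerase I was represented by 3 subunits, and all 3 were upregulated on days 5 and 7. POLR1C (ENSOCUG00000005504, chr12:32964892-32968160 in OryCun2.0), a subunit that polymerases I and III share, had 18.2, 17.9 and 18.2 CPM in the NT7 samples and 76.9, 52.7 and 79.6 CPM in the HT7 samples. In HT5 it had 37.5 and 67.0 CPM against 14.8, 19.7 and 18.2 in NT5, and in HT3 28.6, 20.2 and 25.7 CPM against 18.8, 18.4 and 17.6 in NT3. The groups did not overlap on any day, and HT5 replicate 1 was nearer to HT3 than to the other HT5 sample. The log2FC was 0.44 on day 3 (adjusted p = 0.321), 1.57 on day 5 (adjusted p = 0.000303) and 1.94 on day 7 (SE 0.21, adjusted p = 8.07e-06). POLR1B, which forms the catalytic core with POLR1A, rose least of the 3, from 33.1, 29.1 and 34.3 CPM in NT7 to 47.5, 44.9 and 58.2 CPM in HT7 (log2FC 0.64, SE 0.13, adjusted p = 0.00119). Its groups did not overlap either. Without HT5 replicate 2 the day 5 calls of POLR1C (adjusted p = 0.0123) and POLR1B (adjusted p = 0.0964) were lost, and that of POLR1B was also lost without NT5 replicate 1 or 3.

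Box C/D snoRNP proteins carry the guide RNAs of rRNA methylation, and RRP9 belongs to the U3 particle, which the first cuts of the precursor need. 3 of the 4 members were upregulated on both day 5 and day 7. RRP9 (ENSOCUG00000009193, chr9:19060256-19075116) had 23.8, 20.8 and 30.3 CPM in NT7 and 80.3, 50.6 and 77.9 CPM in HT7. All HT7 samples were above all NT7 samples, with replicate 2 the lowest of the 3 (log2FC 1.48, SE 0.20, adjusted p = 5.37e-05). On day 5 RRP9 had 45.9 and 72.9 CPM in HT5 and 24.2, 20.7 and 20.3 in NT5 (log2FC 1.45, SE 0.22, adjusted p = 0.000445), a call lost without HT5 replicate 2 (adjusted p = 0.0179). NOP56 and NOP58, the paired core proteins, had log2FC of 1.18 and 1.33 on day 7 and were named after their values were seen. FBL, the methyltransferase of the particle, did not pass on any day. The locus of FBL and DYRK1B had 130.2, 86.4 and 103 CPM in HT7 and 80.4, 90.6 and 94.2 in NT7, and these groups overlapped (log2FC 0.27, SE 0.13, adjusted p = 0.094). Without HT7 replicate 2, FBL passed on day 7.

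Enzymes that modify rRNA behaved likewise, with 3 of 4 upregulated on days 5 and 7. NOP2 (ENSOCUG00000008203, chr8:32604542-32614376), which methylates a cytosine of the large-subunit rRNA, had 33.2, 33.4 and 40.4 CPM in HT3 against 32.9, 30.3 and 32.6 in NT3. It had 58.6 and 81.0 CPM in HT5 against 32.5, 36.9 and 29.5 in NT5, and 116, 69.0 and 119 CPM in HT7 against 37.0, 35.4 and 35.1 in NT7. The HT3 values lay just above those of NT3, while HT7 replicates 1 and 3 were far above every normoxia sample. The log2FC was 0.16 on day 3 (adjusted p = 0.733), 1.08 on day 5 (adjusted p = 0.00129, lost without HT5 replicate 2 at 0.0414) and 1.50 on day 7 (SE 0.18, adjusted p = 1.96e-05). The pseudouridine synthases DKC1 and PUS7 were the other 2 called and were named after their values were seen, with log2FC of 1.04 and 0.59 on day 7. NAT10, which acetylates cytidines, was read at a locus shared with CAPRIN1. That locus had 484, 512 and 540.2 CPM in HT7 and 526, 454 and 512 in NT7, with overlapping groups, and its log2FC of 0.04 had an adjusted p of 0.708. Counts of the 2 genes cannot be separated.

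**Figure D2:**
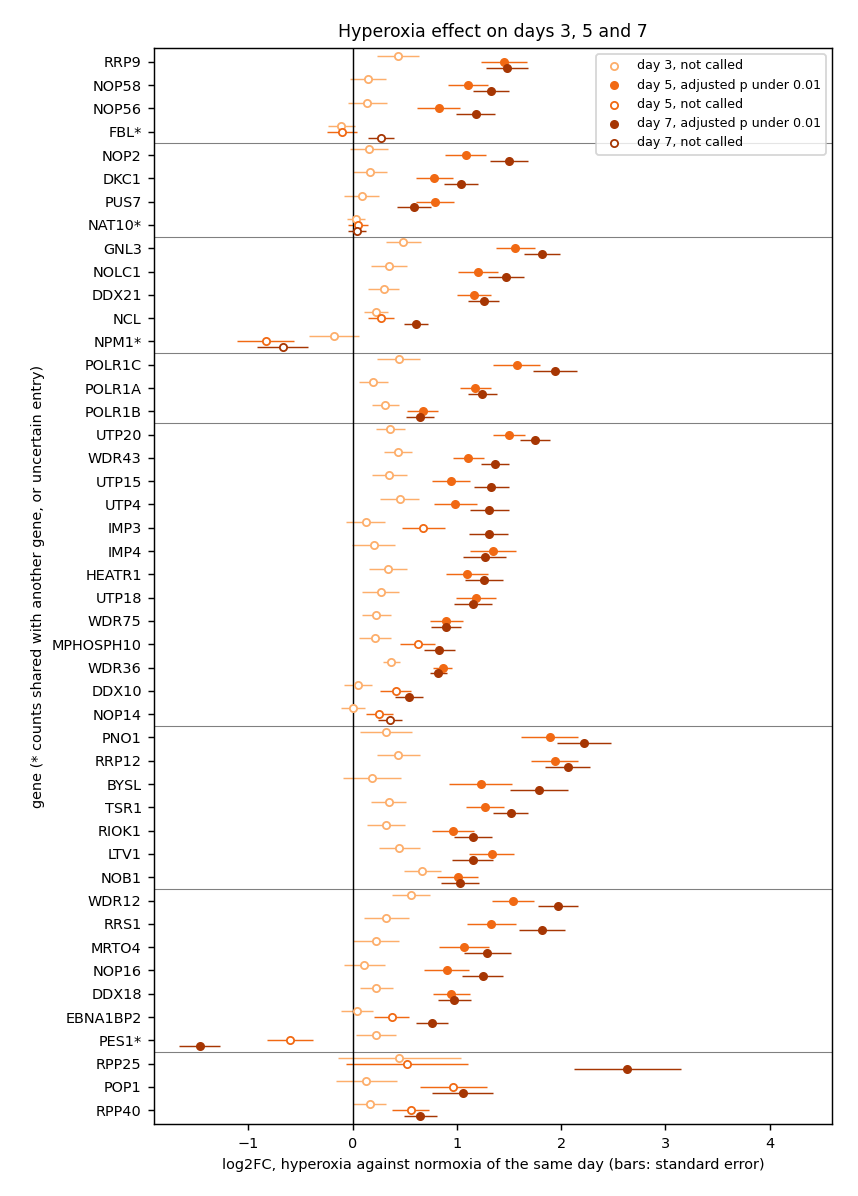
Fitted log2FC of hyperoxia against normoxia for each of the 46 genes (rows) on days 3, 5 and 7, with the standard error as a bar and filled points for an adjusted p-value under 0.01. Day 3 points are all open and lie between -0.18 and 0.67. Filled day 7 points lie to the right of 0 except for PES1 at -1.47.

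Among the abundant nucleolar proteins, 3 of 5 were upregulated on day 5 and 4 of 5 on day 7. GNL3 (nucleostemin, ENSOCUG00000009841, chr9:19741299-19747266), a GTP-binding protein of growing cells, had 258, 187 and 239.7 CPM in HT7 and 71.3, 54.0 and 68.5 in NT7. In HT5 it had 142 and 222 CPM against 68.1, 60.1 and 57.1 in NT5, and in HT3 90.6, 84.5 and 99.9 CPM against 66.7, 57.2 and 72.6 in NT3. GNL3 was above normoxia in every hyperoxia sample, and its lowest value in hyperoxia was that of HT3 replicate 2. The log2FC was 0.49 on day 3 (adjusted p = 0.181), 1.56 on day 5 (adjusted p = 9.09e-05) and 1.82 on day 7 (SE 0.17, adjusted p = 3.56e-06). The entry for NPM1, a nucleolar chaperone, had 2.83, 2.06 and 1.95 CPM in HT7 and 4.72, 3.37 and 2.80 in NT7, with overlapping groups (log2FC -0.67, SE 0.24, adjusted p = 0.0343). In HT5 it had 2.06 and 2.54 CPM, below 4.06, 4.33 and 3.98 in NT5, and this difference missed the threshold as well (log2FC -0.83, adjusted p = 0.0332). The entry held 1011 counts over all 17 samples, and whether it is the parent gene or a copy was not tested.

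The SSU processome, the large particle that forms on the precursor of the small-subunit rRNA, gave 13 members. 9 were upregulated on day 5 and 12 on day 7, and the class median log2FC was 0.27, 0.94 and 1.26 on days 3, 5 and 7. UTP20 (ENSOCUG00000010475, chr4:80625054-80728931) had 194, 171 and 248 CPM in HT7 against 62.1, 59.0 and 61.7 in NT7, and 159 and 197 CPM in HT5 against 63.1, 65.4 and 59.9 in NT5. Both HT5 and all HT7 samples were well above every normoxia sample, with HT7 replicate 3 the highest. The log2FC was 1.50 on day 5 (adjusted p = 4.01e-05) and 1.75 on day 7 (SE 0.14, adjusted p = 1.25e-06). NOP14 was the 1 member that did not pass, with 139.6, 106 and 122 CPM in HT7 and 99.2, 91.3 and 95.1 in NT7. Its HT7 samples were all above its NT7 samples, by a smaller step (log2FC 0.36, SE 0.12, adjusted p = 0.0176), and it passed without HT7 replicate 2. The other 11 members had a log2FC of 0.54 to 1.36 on day 7.

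WDR36 and WDR43, WD-repeat proteins of the same particle, were among the 6 members with the lowest p on day 3. WDR36 (ENSOCUG00000003129, chr11:30804728-30933582) had 64.4, 61.5 and 66.7 CPM in HT3 and 47.3, 47.6 and 53.8 in NT3. Later hyperoxia samples were higher, at 101 and 97.6 CPM in HT5 and 90.3, 101 and 97.9 CPM in HT7. Normoxia samples of days 5 and 7 had 53.2, 52.4 and 57.8 and 54.8, 53.5 and 55.2 CPM. The spread within each group was small, and no hyperoxia sample overlapped a normoxia sample. The day 3 log2FC was 0.37 (SE 0.08, adjusted p = 0.0472), above the threshold of 0.01, and with the replicate number as a block the adjusted p was 0.115. The DESeq2 Wald test called it with an adjusted p of 0.00187. WDR36 then passed on day 5 (log2FC 0.87, adjusted p = 5.54e-05) and day 7 (log2FC 0.82, adjusted p = 5.32e-06). WDR43 (ENSOCUG00000003126) had 63.9, 71.8 and 81.1 CPM in HT3 and 54.1, 51.8 and 54.4 in NT3, without overlap (log2FC 0.44, adjusted p = 0.136). By day 7 it had 153, 116 and 146 CPM in HT7 against 61.0, 48.0 and 52.3 in NT7 (log2FC 1.36, SE 0.13, adjusted p = 4.51e-06).

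All 7 later maturation factors of the small subunit were upregulated on days 5 and 7, as were all 3 RNA polymerase I subunits. Of all entries, 8.56% and 16.7% were upregulated on these days. The median log2FC of the 7 factors was 0.35 on day 3, 1.27 on day 5 and 1.52 on day 7. PNO1 (ENSOCUG00000006100, chr2:117958801-117972302), an RNA-binding partner of the nuclease NOB1, had 33.3 and 50.1 CPM in HT5 and 11.3, 10.8 and 11.7 in NT5. It had 60.5, 35.3 and 54.8 CPM in HT7 and 12.8, 6.75 and 12.8 in NT7. Every HT5 and HT7 sample was above every normoxia sample, and NT7 replicate 2 was the lowest of all. The log2FC was 1.89 on day 5 (adjusted p = 0.000309, lost without HT5 replicate 2 at 0.0112) and 2.22 on day 7 (SE 0.26, adjusted p = 1.32e-05). NOB1 (ENSOCUG00000004400, chr5:25165069-25174451), the endonuclease that makes the end of the small-subunit rRNA, had the largest day 3 difference of all members. It had 63.5, 55.1 and 56.7 CPM in HT3 and 40.9, 33.0 and 36.2 in NT3, with no overlap, but the difference did not pass (log2FC 0.67, SE 0.18, adjusted p = 0.0916). It had 92.5, 59.6 and 80.7 CPM in HT7 and 38.0, 39.1 and 37.0 in NT7, so HT7 replicate 2 was below HT3 replicate 1 (log2FC 1.03, SE 0.18, adjusted p = 0.000345). Its day 5 call (log2FC 1.01, adjusted p = 0.00202) was lost without HT5 replicate 2 (0.0895) and with the replicate number as a block.

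Large-subunit assembly factors gave 6 upregulated members of 7 on day 7 and 5 on day 5. WDR12 (ENSOCUG00000002961, chr7:143551555-143576223), which acts in 1 complex with PES1 and BOP1, had 28.9, 23.9 and 31.6 CPM in HT3 against 18.8, 17.4 and 21.1 in NT3. It had 46.1 and 73.3 CPM in HT5 against 19.9, 20.6 and 21.3 in NT5, and 89.2, 61.5 and 87.0 CPM in HT7 against 21.8, 17.1 and 21.7 in NT7. The groups were apart on each day, and the distance was larger on days 5 and 7. The log2FC was 0.56 on day 3 (adjusted p = 0.161), 1.53 on day 5 (adjusted p = 0.000173) and 1.97 on day 7 (SE 0.19, adjusted p = 3.61e-06). The 5 members other than WDR12 and PES1 had a log2FC of 0.76 to 1.82 on day 7.

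PES1 was the 1 member called downregulated. Its locus (ENSOCUG00000009646, chr21:3067853-3151320) is shared with SEC14L3. The locus had 367, 583 and 387 CPM in HT7 and 1325, 1304 and 1066 in NT7, and 781 and 513 CPM in HT5 against 930.0, 1128 and 875 in NT5. All HT7 samples were below all NT7 samples (log2FC -1.47, SE 0.20, adjusted p = 4.4e-05). The day 5 difference missed the threshold (log2FC -0.60, adjusted p = 0.0511). Which of the 2 genes changed cannot be told apart from these counts.

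RNase P and MRP proteins, which process tRNA and rRNA precursors, were not called on day 5 but were on day 7. None of the 3 passed on day 5, when POP1 and RPP40 had adjusted p-values of 0.0318 and 0.027, and all 3 were upregulated on day 7. The log2FC of POP1 and RPP40 were nonetheless close on the 2 days, at 0.97 and 0.56 on day 5 and 1.05 and 0.65 on day 7. POP1 had 8.11 and 9.14 CPM in HT5 and 4.33 to 4.55 in NT5, with no overlap. RPP25 (ENSOCUG00000000533, scaffold GL018768, 1240371-1240970) had the largest log2FC of all members on day 7. It was scarce: the HT7 samples had 38, 11 and 26 counts and the NT7 samples 3, 2 and 5. HT5 had 7 counts in each sample and NT5 had 6, 6 and 3. The HT7 counts stood apart from all normoxia counts, and HT7 replicate 2 was much lower than the others. The day 7 log2FC was 2.64 (SE 0.52, adjusted p = 0.000776) and stayed past the threshold without any 1 of the 6 day 7 samples. RPP40 had 33.6, 23.7 and 27.4 CPM in HT7 and 16.1, 16.7 and 21.1 in NT7, with no overlap (log2FC 0.65, SE 0.16, adjusted p = 0.00402). That call was lost without HT7 replicate 1 (adjusted p = 0.0239), NT7 replicate 1 (0.0208) or NT7 replicate 2 (0.0204).

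**Figure D3:**
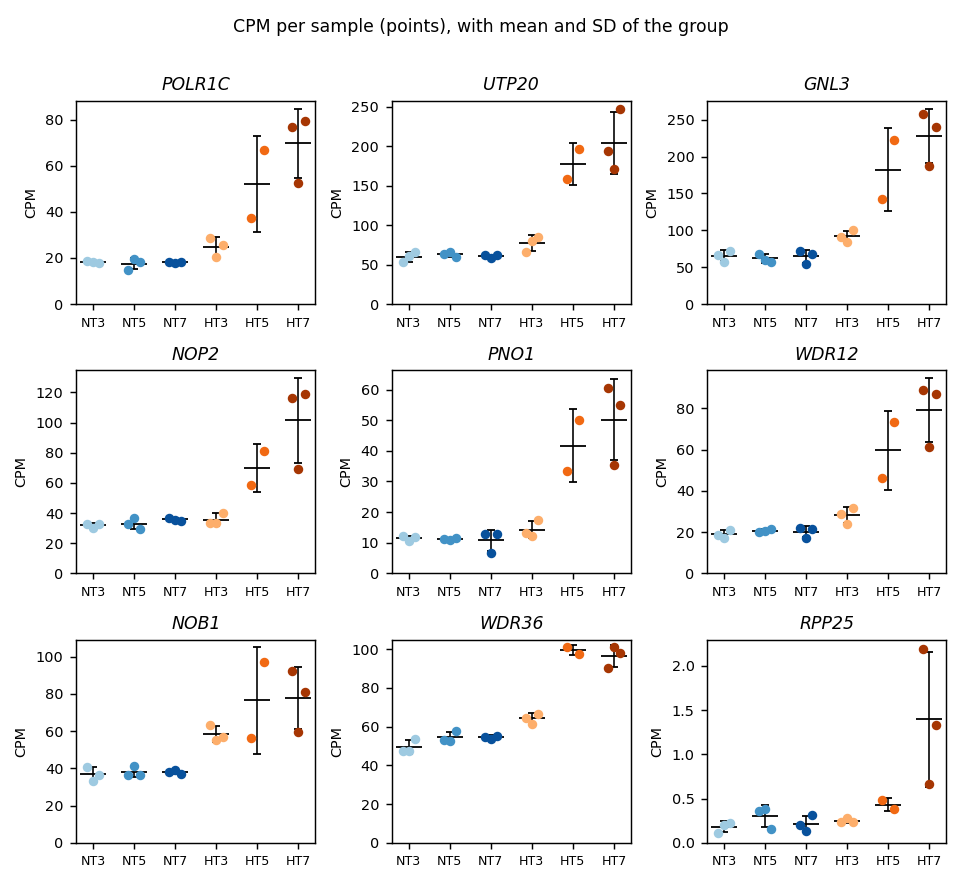
CPM of 9 members in each sample (points) by group, with the group mean and SD as bars on axes that start at 0. HT5 and HT7 points are above all normoxia points in each panel except for RPP25, where HT5 overlaps NT5 and HT7 stands apart.

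Only 3 members passed the study's fold threshold of 4 on day 7: RPP25, PNO1 and RRP12 (log2FC 2.06, a pre-ribosome export factor named here after its values were seen), where 1.75% of all entries were upregulated by more than 4-fold. On day 5 no member passed it in edgeR (0.822% of all entries did). The median fold of the 46 members was 1.97 on day 5 and 2.37 on day 7.

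NPM1 and the members at shared loci were also left out. Of the remaining 42, all had a log2FC above 0 on the 3 days, 33 were upregulated on day 5 and 41 on day 7, and NOP14 was the exception on day 7. Their medians were 0.28, 1.04 and 1.26. NOP14 had a day 3 log2FC of 0.01, which was below 0 with library totals in place of TMM.

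Days 5 and 7 could be set side by side because they share no samples. The log2FC was larger on day 7 than on day 5 in 37 of 46 members, where 49.8% of all entries were larger on day 7, and the difference of the 2 days was not tested. It depends on single HT5 samples. The day 5 median log2FC of the members was 1.24 without HT5 replicate 1 and 0.68 without HT5 replicate 2, beside 1.25 on day 7. Across members, which are not independent replicates, Spearman's rho between the log2FC of days 5 and 7 was 0.81 and over all entries tested it was 0.81 as well.

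No change with age was detected in normoxia. Between NT3 and NT7 edgeR called 0 members and 0% of all entries, 1 member and 6.27% of all entries had an unadjusted p under 0.05, DESeq2 called 0, and the median log2FC was 0.08. Between HT3 and HT7, 37 members were upregulated and 1 downregulated, where 14.3% and 15.1% of all entries were, and the median log2FC was 1.02. Cell division genes moved with the members here: 8 of 16 were upregulated and 0 downregulated, 15 had a log2FC above 0, and their median log2FC was 1.51, above that of the members. Their summed level was 268 to 292 CPM in HT3 and 445 to 761 CPM in HT7. Between NT3 and NT7 their median log2FC was 0.88, with 15 above 0 and a lowest adjusted p of 0.649. Their part in the members' rise was not tested. These 2 comparisons share their samples with those against normoxia.

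The hyperoxia effect itself differed between days. With the day 3 effect subtracted from the day 7 effect, 15 members were higher and 1, PES1, lower, where 2.59% and 4.68% of all entries were, and the median difference was 0.93. Of the 16 called, PNO1 had the largest difference, 1.90 on the log2 scale. RPP25 had a larger one, 2.19, which did not pass (adjusted p = 0.0668). This count moved with single libraries, as did the share of all entries called, which was 7.27% with all samples. The 16 calls became 9, 6, 7, 31 and 4 without HT3 replicate 1, HT3 replicate 2, HT7 replicate 1, HT7 replicate 2 and HT7 replicate 3, beside 3.71%, 3.33%, 3.46%, 15% and 2.75% of all entries. They became 7, 8, 7, 5 and 8 without NT3 replicate 1, NT3 replicate 2, NT3 replicate 3, NT7 replicate 2 and NT7 replicate 3, beside 3.13%, 2.97%, 2.90%, 2.73% and 3.78%. DESeq2 called 27, beside 14.8% of all entries.

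**Figure D4:**
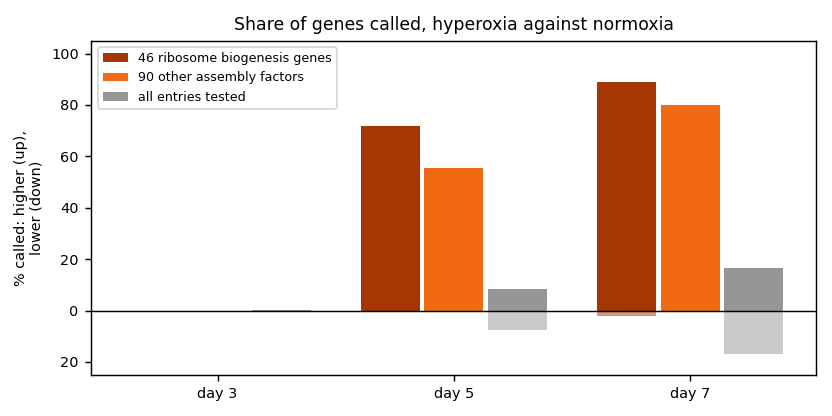
Share of genes called in edgeR at an adjusted p-value under 0.01, upregulated above and downregulated below the 0 line, for 46 ribosome biogenesis genes, 90 other ribosome assembly factors and all entries tested on each day. On days 5 and 7 both gene lists exceed the 8.56% and 16.7% of all entries upregulated, and bars are near 0 on day 3.

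Genes of the same pathway that are not on the list were upregulated as well. Of 90 other ribosome assembly factors tested (103 listed), 50 were upregulated on day 5 and 72 on day 7, 0 were downregulated on either day, and the medians were 0.11, 0.73 and 0.92 on days 3, 5 and 7. On day 3 edgeR called 0 of the 90, and 2 had an unadjusted p under 0.05, where 15.3% of all entries did. DESeq2 called 1 of all 134 tested genes of the 5 pathway lists on that day, and it was downregulated (1.56% of all entries were called). The day 5 count rests on HT5 here as well. Without HT5 replicate 2, 3 of the 90 were upregulated and 4 of all 134 were called, beside 1.65% of all entries, where 61 of 134 and 16.2% of all entries were called with all samples. Without NT5 replicate 1, 2 or 3 the 61 calls became 38, 37 and 32, beside 13.5%, 9.19% and 9.03% of all entries, and with the replicate number as a block 33, beside 7.36%. With only the day 5 samples in the fit edgeR called 0 of the 134 and 0.0945% of all entries, and 94 of the 134 and 37.6% of all entries had an unadjusted p under 0.05. On day 7 the 96 calls (33.6% of all entries) became 77 to 97 without single samples (24.8% to 36.6%).

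NLE1, which acts in large-subunit assembly, had 45.3, 21.3 and 42.6 CPM in HT7 and 8.68, 9.78 and 6.54 in NT7 (log2FC 2.13, SE 0.33, adjusted p = 0.000136). MYBBP1A, a nucleolar MYB-binding protein, had 573, 296 and 474 CPM in HT7 and 128, 117 and 129 in NT7 (log2FC 1.84, SE 0.21, adjusted p = 1.15e-05). Both were higher in every HT7 sample. NAF1 and METTL5 had the smallest log2FC of the list, -0.27 and -0.21, and did not pass.

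Of 11 other genes of the polymerase I machinery, 2 were upregulated on day 5 and 4 on day 7, with 0 downregulated, beside 8.56% and 16.7% of all entries upregulated. POLR1G, a subunit of the polymerase, had 22.7, 12.2 and 18.7 CPM in HT7 and 3.96, 4.32 and 4.98 in NT7 (log2FC 2.01, SE 0.26, adjusted p = 3.14e-05), and TAF1C, of the promoter selectivity factor, had a log2FC of 0.93 (adjusted p = 0.00972). UBTF, the upstream binding factor that opens rDNA, had 144, 134 and 143 CPM in HT7 and 173, 187 and 193 in NT7, all HT7 samples below all NT7 samples, and just missed the threshold (log2FC -0.39, adjusted p = 0.0103). TAF1B had a log2FC of 0.09.

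The RNA exosome trims rRNA precursors, and 9 of its 14 tested genes were upregulated and 1 downregulated on day 7, after 6 and 1 on day 5, beside 16.7% and 16.9% of all entries on day 7 and 8.56% and 7.62% on day 5. EXOSC1 and EXOSC5 had the largest log2FC, 1.30 and 1.04. EXOSC7 fell from 128, 106 and 101 CPM in NT7 to 64.8, 64.0 and 50.8 CPM in HT7 (log2FC -0.90, SE 0.14, adjusted p = 0.000153), and EXOSC2 had a log2FC of -0.09. Of 7 other RNase P and MRP genes, 3 were upregulated and 1 downregulated on day 7 (16.7% and 16.9% of all entries). RPP14, at a shared locus, and RPP30 had log2FC of 0.94 and 0.88, POP4 fell (log2FC -0.63, adjusted p = 7.89e-05) and RPP25L had 0.16.

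Of 12 genes of the MYC network, 3 were upregulated and 3 downregulated on day 7, where 16.7% and 16.9% of all entries were, and 0 were upregulated and 2 downregulated on day 5, where 8.56% and 7.62% were. These counts are near those of all entries. MYC had 144, 95.2 and 173 CPM in HT7 and 42.9, 47.9 and 37.3 in NT7, with no overlap (log2FC 1.69, SE 0.27, adjusted p = 0.000155). In HT5 it had 54.9 and 111 CPM against 46.9, 40.3 and 41.4 in NT5 and did not pass (log2FC 0.95, adjusted p = 0.0221). MAX, the partner of MYC on DNA, rose on day 7 (log2FC 1.20, adjusted p = 0.000376), and MXD4, which competes with MYC for MAX, fell (log2FC -1.73, adjusted p = 1.19e-05). MYCN had 1, 10 and 3 counts in the HT7 samples and 46, 45 and 198 in NT7, where replicate 3 was far above the others, and was downregulated (adjusted p = 0.000458).

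**Figure D5:**
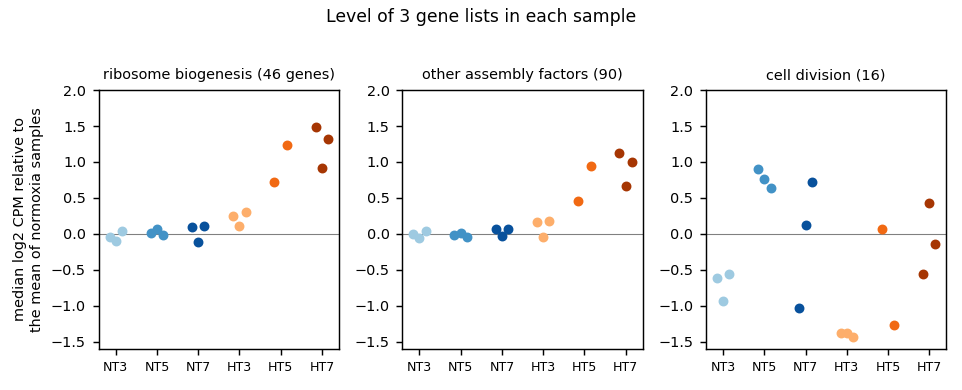
Median log2 CPM relative to the mean of the normoxia samples, by group and sample (points), for 46 ribosome biogenesis genes, 90 other assembly factors and 16 cell division genes. The first 2 lists are higher in HT5 and HT7 than in all normoxia samples, and the cell division genes are not.

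Markers of cell types and of cell division differed in the same samples, and their part in the members' rise was not tested. The summed level of 16 cell division genes was 268 to 292 CPM in HT3 against 341 to 480 in NT3, 380 to 658 in HT5 against 926 to 1053 in NT5, and 445 to 761 in HT7 against 338 to 934 in NT7. The sums did not overlap on days 3 and 5, when 0 and 1 of the 16 genes passed as downregulated (15 and 14 had a log2FC below 0), and overlapped on day 7, when TYMS was upregulated and CCNA2 downregulated. 5 alveolar type 1 genes summed to 1786 to 2958 CPM in HT5 against 4301 to 5046 in NT5 and to 1652 to 2178 in HT7 against 4777 to 6048 in NT7, with 2 and 3 of them downregulated. 4 endothelial genes summed to 1460 to 1892 CPM in HT3 against 1923 to 2217 in NT3, where TIE1 was downregulated (log2FC -0.87, adjusted p = 0.00316), a call lost with the replicate number as a block (adjusted p = 0.027). They summed to 859 to 875 CPM in HT5 against 1595 to 1952 in NT5 and to 594 to 1017 in HT7 against 1544 to 1931 in NT7, with 3 downregulated on each of these days. 4 fibroblast genes summed to 4059 to 4279 CPM in HT3 against 5066 to 5750 in NT3 and to 2616 to 3201 in HT5 against 4182 to 4842 in NT5, where COL1A2 was downregulated, and their sums overlapped on day 7, when TCF21 was. 4 smooth muscle and pericyte genes summed to 979 to 1125 CPM in HT3 against 1298 to 1335 in NT3 and to 665 to 872 in HT7 against 933 to 1276 in NT7, and MYH11 was downregulated on days 5 and 7. 5 ciliated cell genes summed to 69.6 to 82.6 CPM in HT5 against 94.5 to 118 in NT5, with no call. Sums of 4 alveolar type 2 genes overlapped on day 7, when NAPSA was downregulated (log2FC -1.49, adjusted p = 0.00658). Of all entries, 0.107%, 7.62% and 16.9% were downregulated on days 3, 5 and 7. With the replicate number as a block, no alveolar type 1, fibroblast or cell division gene passed on day 5. Their lowest adjusted p-values were then 0.0122 (CLIC5), 0.013 (COL1A2) and 0.01195 (AURKB).

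Blood and immune cell markers differed between the groups as well. 5 macrophage genes summed to 962 to 1309 CPM in HT3 against 885 to 957 in NT3, with no call. They summed to 1592 to 1620 CPM in HT5 against 819 to 1402 in NT5. There CD68 was upregulated (log2FC 0.86, adjusted p = 0.00562), and 3 of the 5 had a log2FC below 0. On day 7 they summed to 1650 to 2287 CPM in HT7 and 1064 to 1252 in NT7. This difference lay with CD68, at 1179 to 1999 CPM in HT7 and 599 to 768 in NT7. CD68 was upregulated and MARCO downregulated on day 7, and the other 3 were not called. With the replicate number as a block, the day 5 call of CD68 (adjusted p = 0.0128) and that of MARCO (0.0143) were lost. 4 lymphocyte genes summed to 1.02 to 2.48 CPM in HT7 and 6.70 to 10.5 in NT7, with 3 downregulated. 5 neutrophil genes summed to 895 to 1254 CPM in HT3 and 259 to 617 in NT3, where the lowest adjusted p of the 5 was 0.0909 (CXCR2). 3 erythroid genes summed to 67.0 to 78.2 CPM in HT5 against 94.4 to 173 in NT5 and to 47.3 to 67.1 in HT7 against 118 to 202 in NT7, where ALAS2 was downregulated. No marker of the cell division, alveolar type 1, endothelial and macrophage lists was at 0 in any sample, MS4A1 of the lymphocyte list was at 0 in 1, and ATP2A1 of the skeletal muscle list, whose normoxia sums were at most 9.04 CPM, in 2.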

How the data were processed

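Poly(A) RNA of 17 lung homogenates was sequenced as stranded paired-end libraries, and the authors deposited the counts of each locus without scaling them. The submitters' processing notes name FastQC, STAR 2.7.10a and OryCun2.0, and the counting program is not given in the sources used here. Genes at a shared locus have the same counts in the table.

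The test was that of edgeR 4.0.16 (R 4.3.3), by quasi-likelihood after filterByExpr and TMM, with 6 groups and all 17 samples in 1 model, which pools the spread over groups of 2 and 3. Benjamini-Hochberg adjustment covered 13142 entries, and 0.01 was the threshold. log2FC used a prior count of 0.125, and its SE is the log2FC divided by the root of the F statistic. The script was tested on simulated data. Alternatives were DESeq2 1.42.0, other scaling, filters, prior count and thresholds, 1 entry per locus, the samples of 1 day only, a replicate block within day and leaving out each sample. Leaving out shared loci and NPM1, and single samples for the other pathway genes, was added after seeing the data. Figures used matplotlib 3.10.9 in Python 3.11.

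The members and lists were chosen with earlier results of these data known. Members named with values were the largest and smallest log2FC of each of 8 classes on day 7, the 6 lowest p-values of day 3, those below 0 on day 5 or 7, and RPP25. Of each pathway list, the 2 largest and 2 smallest log2FC on day 7 were named, with MYC, MYCN and UBTF. Any other gene was named after its values were seen.

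Whether equal replicate numbers pair samples was checked by correlating how far each sample lay from its group mean. Day 3 gave 0.166, 0.131 and 0.199, day 5 gave 0.264 and 0.141, and day 7 gave 0.174, 0.109 and 0.0695. All pairs of days 3 and 5 were thus above 0.1. On day 3 the members had 0 calls without the block, so none could be lost with it. Over all entries the share called on day 3 went from 0.205% to 0.0152%. On day 5 the member calls went from 33 to 27 with the block (16.2% to 7.36% of all entries). On day 7 they went from 42 to 41 (33.6% to 30.9%).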

Additional observations from a re-analysis of the deposited data

Results flagged for a closer look

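The hyperoxia effect differed between days 7 and 3 in 16 members by a test of the difference itself (edgeR's quasi-likelihood test, adjusted p-value under 0.01). This count stood beside 7.27% of all entries called in either direction, and became 4 to 31 without single samples, beside 2.73% to 15% of all entries. 15 had a larger log2FC on day 7 than on day 3, where 2.59% of all entries were called in that direction. The differences on the log2 scale were 1.90 in PNO1, 1.62 in RRP12, 1.50 in POLR1C, 1.50 in RRS1, 1.41 in WDR12, 1.39 in UTP20, 1.34 in NOP2 and 1.34 in GNL3. They were 1.18 in IMP3, 1.18 in NOP58, 1.17 in TSR1, 1.12 in NOLC1, 1.04 in POLR1A, 0.96 in DDX21 and 0.93 in WDR43. The locus of PES1 and SEC14L3 went the other way, with a difference of -1.69.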

How the results depend on the processing

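Shares of all entries called under the same setting are in parentheses. Members called on day 3 went from 0 (0.205%) to 1 with DESeq2 (1.56%) and to 1 at an adjusted p under 0.05 (1.03%). On day 5 the 33 calls (16.2%) became 0 with a log2FC beyond 2 (1.58%), 0 with the day 5 samples alone (0.0945%; 40 at an unadjusted p under 0.05), and 7 to 36 without single replicates (1.65% to 17.7%), the 7 without HT5 replicate 2. On day 7 the 42 calls (33.6%) became 3 with a log2FC beyond 2 (4.59%) and 38 to 44 without single replicates (24.8% to 36.6%). From HT3 to HT7 the 38 calls (29.4%) became 1 beyond 2 (3.52%) and 33 to 40 without single replicates (20.4% to 33.3%). For the difference of the day 7 and day 3 effects, the 16 calls (7.27%) became 27 with DESeq2 (14.8%), 32 at an adjusted p under 0.05 (20.5%), 0 with a log2FC beyond 2 (1.56%; 41 at an unadjusted p under 0.05) and 4 to 31 without single replicates (2.73% to 15%). Of the other pathway genes, 1 was called downregulated on day 3 with DESeq2 (1.56%), and the 61 calls of day 5 (16.2%) became 33 with the replicate block (7.36%), 0 with the day 5 samples alone (0.0945%; 94 at an unadjusted p under 0.05) and 4 to 71 without single replicates (1.65% to 17.7%), the 4 without HT5 replicate 2. The median log2FC of the members without single replicates was 0.20 to 0.34 on day 3, 0.68 to 1.24 on day 5 and 1.10 to 1.37 on day 7. With the replicate number as a block within day, 0, 27 and 41 members were called on days 3, 5 and 7 (0.0152%, 7.36% and 30.9%) and 18 in the difference of effects (4.57%).

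NOP14 on day 3 changed sign with library totals (-0.00302) and without single replicates (-0.0281 to 0.0665). NAT10 did so on day 3 without NT3 replicate 1 (-0.00925, range without single replicates -0.00925 to 0.0744) and on day 7 without NT7 replicate 2 (-0.0195, range -0.0195 to 0.0844). The cause was not tested. HT5 had 2 samples, and RPP25, with 137 counts in all, is limited by its depth.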
